A study of Mus musculus with 6 samples.

Results

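Oxidative phosphorylation is built from 2 genomes, and its transcripts were followed here in common myeloid progenitors, the bone marrow cells that give rise to granulocytes, monocytes, red cells and platelets. The set was a list of 49 genes matched by name in the gene and junction tables: 15 genes of the mitochondrial genome and 34 nuclear genes for subunits of complexes I to V. Of these, 48 were among the 13932 genes of the gene table (mt-Nd4l was not among its rows), and the 34 nuclear genes had 312 of the 151811 splice junctions. All 6 libraries came from mice that received bone marrow with rtTA, the doxycycline-dependent transactivator, and an inducible U2AF1 transgene, either the S34F mutant (U2AF1(S34F)/rtTA, 3 libraries, called S34F below) or wild type (U2AF1(WT)/rtTA, 3 libraries, called WT). After engraftment for more than 6 weeks, both groups ate doxycycline chow for 5 days. Each library was a pool of marrow from 4 to 5 mice, sorted as lineage-negative, c-Kit+, Sca-1-, CD34+ and Fc gamma receptor-negative. Genotype was read from the sample titles, because the genotype field carried the mutant name for WT samples too. The sources used here do not give the promoter behind rtTA or the share of host cells in the sort.

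The respiratory chain passes electrons from NADH (complex I) and succinate (complex II) through complex III to oxygen at complex IV, and the proton gradient made on the way drives ATP synthesis at complex V. The mitochondrial genome encodes core membrane subunits of complexes I, III, IV and V together with the ribosomal RNAs that translate them, and all other subunits, complex II included, are nuclear. Mitochondrial genes are copied as long transcripts from both strands of a circle, are cut apart at tRNAs and have no introns, whereas nuclear subunit genes are spliced by the machinery of which U2AF1, the reader of the AG at the end of introns, is a part.

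Total gene counts ranged from 46827909 to 51862032 in S34F and from 54727541 to 94562984 in WT, where replicates 2 and 3 were the deepest libraries, so depth and genotype moved together. Cells of replicate 1 were male in both genotypes (Ddx3y, a Y-linked gene, at 5714 and 5580 counts and at 0 in the other 4 libraries) and those of replicates 2 and 3 were female, with Xist between 67264 and 128694 counts. Of the gate's own genes, Cd34 was at 791 ± 87.7 CPM in S34F and 841 ± 56.1 in WT (CPM is the count divided by the TMM-adjusted library size; mean ± SD, n = 3), Kit at 149 to 192 and 92.4 to 209, and Ly6a, the Sca-1 gene, at 1.28 ± 0.183 and 1.54 ± 0.392. Fcgr3, an Fc gamma receptor gene, was present at 57.7 ± 22.6 and 70.3 ± 36.9 CPM. The summed level of 13 measured dendritic cell and macrophage markers was 696 to 1009 CPM in S34F and 1139 to 1316 CPM in WT, with 11 of the 13 lower in S34F. Their median log2 fold change was -1.74, and DESeq2 called 6 of the 13, all lower, where 0.689% of all genes were called. The summed level of 6 megakaryocyte markers was 87.7 to 117 against 127 to 173 CPM, with 4 of the 6 lower in S34F and 2 higher. The summed erythroid, neutrophil, lymphoid and mast cell markers overlapped between genotypes, although 9 of 10 erythroid markers had a lower mean in S34F, and no marker tested was at 0 in any library. The part of depth and of these marker differences in the results below was not tested. The number of genes called depended on WT replicate 1. With all 6 libraries 0 genes passed edgeR at an adjusted p of 0.05 (1265 had an unadjusted p under 0.05, and DESeq2 called 96). Without that library 1172 passed, or 8.42% of those tested. WT then kept only replicates 2 and 3, both female, at 71237275 and 94562984 gene counts, and the male library left was S34F replicate 1. The part of depth and sex in that comparison was not tested.

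Protein-coding transcripts of the mitochondrial genome took larger shares of gene counts in the S34F libraries, without overlap with WT, while the summed share of the nuclear subunits overlapped between genotypes. Gene by gene, edgeR called 0 of the 14 measured mitochondrial members and DESeq2 called 5. The summed shares were not tested. Protein-coding mitochondrial members took 1.93%, 1.90% and 1.77% of gene counts in the S34F libraries and 1.47%, 1.58% and 1.21% in WT. The nuclear members took 0.691%, 0.756% and 0.680% in S34F and 0.639%, 0.737% and 0.773% in WT, and these ranges overlapped. Mitochondrial mRNA reads per nuclear member read came to 2.79, 2.51 and 2.61 in the mutant and to 2.31, 2.14 and 1.57 in the control. The balance between the genomes was thus 2.64 ± 0.141 against 2.00 ± 0.389, a difference of 0.41 on the log2 scale, with no overlap between the groups. Leaving out each library in turn moved that difference between 0.24 and 0.52. The mRNAs with the lowest log2 fold changes, mt-Co1, mt-Co3 and mt-Nd3 (0.36, 0.23 and 0.11), were taken apart, a split not planned beforehand. Alone they gave 2.09, 1.97 and 1.94 reads per nuclear member read in S34F and 1.75, 1.77 and 1.29 in WT, without overlap. The other 9 mRNAs came to 0.701, 0.545 and 0.672 against 0.557, 0.365 and 0.281, and these overlapped: S34F replicate 2 lay below WT replicate 1. In sorted cells pooled in bulk, more mitochondrial RNA per cell and a changed mix of cells cannot be told apart.

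**Figure D1:**
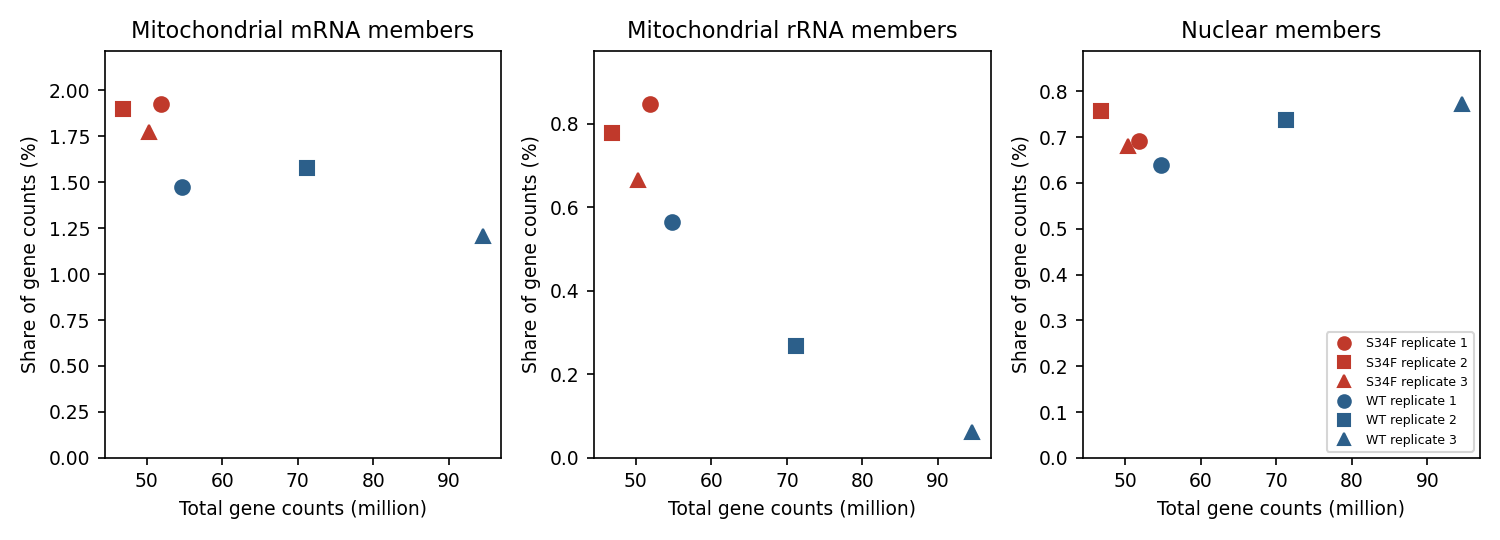
Share of gene counts (percent, y axis from 0) taken by the protein-coding mitochondrial members, the mitochondrial ribosomal RNAs and the nuclear members, against the library's total gene counts; each point is a library, red for S34F and blue for WT. The S34F points lie above the WT points in the first and second panels and among them in the third, and WT replicate 3, the deepest library, has the lowest mitochondrial shares.

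The protein-coding mitochondrial genes all had a higher mean in S34F with all 6 libraries, by different amounts. The 12 tested had a median log2 fold change of 0.69 and a range from 0.11 to 1.09, where the median over all 13905 genes tested was -0.01. In 10 of the 12, every S34F library exceeded every WT library, which was the case for 7.16% of all genes. None passed edgeR at an adjusted p of 0.05 (0% of all genes did), although 10 had an unadjusted p under 0.05 (4.39% of all genes were so in this direction). DESeq2 called 5 of the 12 higher (0.244% of all genes): mt-Nd1, mt-Nd2, mt-Nd4, mt-Nd5 and mt-Atp8. The same 5 were called in the authors' deposited table, where 0.249% of genes were called higher.

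**Figure D2:**
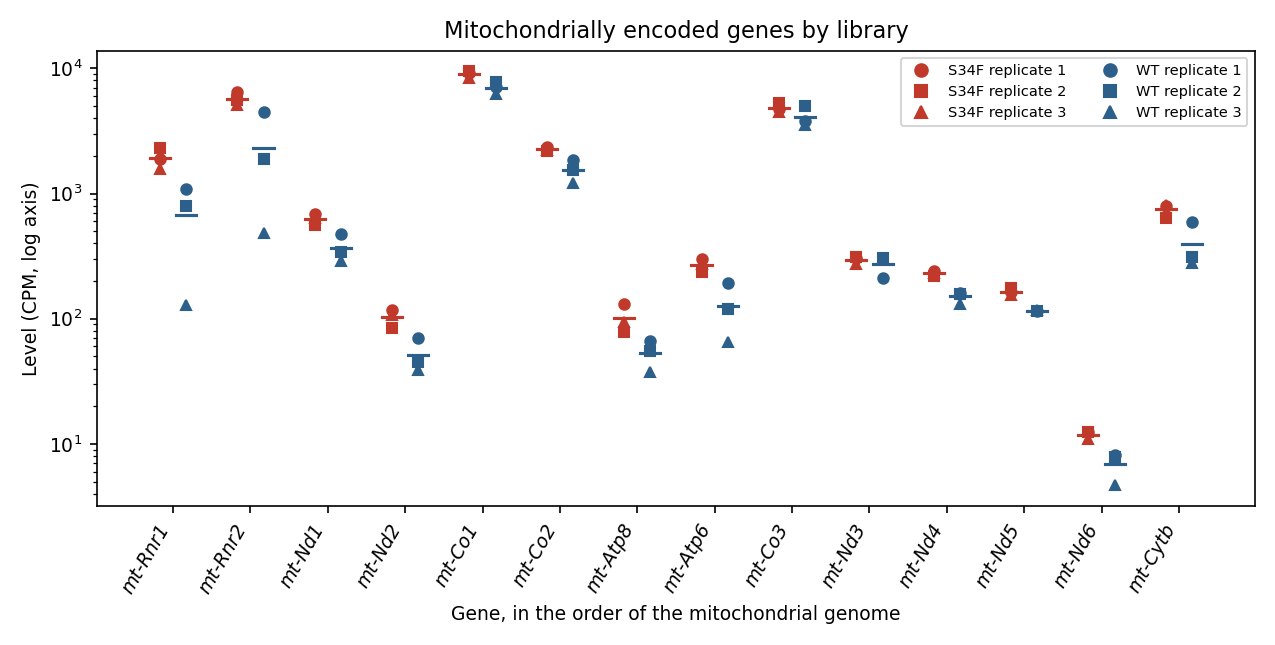
Level of each mitochondrial member in CPM on a log axis, with genes in the order of the mitochondrial genome; points are libraries (red S34F, blue WT, marker shape by replicate) and short lines are group means. The groups separate at 12 of the 14 genes and overlap at mt-Co3 and mt-Nd3, and the WT spread is widest at the ribosomal RNA genes mt-Rnr1 and mt-Rnr2.

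Complex I holds most of the mitochondrially encoded subunits, the membrane proteins that pump protons. mt-Nd1 was at 682, 556 and 634 CPM in S34F and at 476, 343 and 291 CPM in WT (chrM:2751-3707, log2 fold change 0.75 ± 0.19 SE, edgeR adjusted p = 0.538, DESeq2 adjusted p = 0.0265). mt-Nd2 was at 117, 84.7 and 107 against 69.5, 44.9 and 39.0 CPM (chrM:3914-4951, 1.01 ± 0.23, edgeR adjusted p = 0.523, DESeq2 adjusted p = 0.0053). In both genes WT replicate 1 was the WT library nearest to the S34F libraries. mt-Nd4 was at 241, 221 and 230 against 162, 159 and 131 CPM (chrM:10167-11544, 0.62 ± 0.11, edgeR adjusted p = 0.323, DESeq2 adjusted p = 0.000748). mt-Nd5 was at 162, 175 and 153 against 114, 115 and 118 CPM (chrM:11742-13565, 0.49 ± 0.09, edgeR adjusted p = 0.331, DESeq2 adjusted p = 0.000835). These had the smallest standard errors of the mitochondrial members, and for mt-Nd5 the 3 WT libraries lay within 4 CPM of each other. mt-Nd6, the only protein gene on the opposite strand, was the lowest of all at 12.3, 12.4 and 10.9 against 8.12, 7.80 and 4.65 CPM (chrM:13552-14070, minus strand, log2 fold change 0.79 ± 0.23, DESeq2 adjusted p = 0.107). Its end overlaps that of mt-Nd5, and no source used here says whether the counting used the strand, so its reads are uncertain. mt-Nd3 did not separate the genotypes: 306, 309 and 271 against 211, 305 and 303 CPM, with only WT replicate 1 below the rest.

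Complex III has a single mitochondrial subunit, cytochrome b, and complex IV has its catalytic core. mt-Cytb was at 801, 634 and 816 CPM in S34F and 587, 310 and 278 CPM in WT (chrM:14145-15288, log2 fold change 0.94 ± 0.28, edgeR adjusted p = 0.538, DESeq2 adjusted p = 0.0669). mt-Co1, the oxygen-reducing subunit, was at 9239, 9446 and 8385 against 7064, 7815 and 6186 CPM (0.36 ± 0.11, DESeq2 adjusted p = 0.222). mt-Co2, which accepts electrons from cytochrome c, was at 2358, 2170 and 2231 against 1851, 1541 and 1223 CPM (0.55 ± 0.15, DESeq2 adjusted p = 0.0999). With all 6 libraries and no further term in the fit, none of these 3 genes passed either tool, while their libraries did not overlap. mt-Co3 was at 4834 ± 403 in S34F and 4109 ± 781 CPM in WT, and WT replicate 2, at 4991 CPM, lay within the S34F range.

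The mitochondrial subunits of the ATP synthase lie next to each other and share bases. mt-Atp6, part of the proton channel, was at 301, 234 and 274 CPM in S34F and 194, 120 and 64.8 CPM in WT (chrM:7927-8607, log2 fold change 1.09 ± 0.35, DESeq2 adjusted p = 0.0765). mt-Atp8 was at 130, 78.2 and 93.9 against 65.9, 55.4 and 37.6 CPM (chrM:7766-7969, 0.93 ± 0.25, edgeR adjusted p = 0.538, DESeq2 adjusted p = 0.0373). In both genes the lowest S34F library was above the highest WT library. The 43 bases that belong to both reading frames are shown because a read over them overlaps both genes. They lie at chrM:7927-7969 on the plus strand of mm9, and the capitals mark the start codon of mt-Atp6 and the stop codon of mt-Atp8.
mt-Atp8 and mt-Atp6 overlap: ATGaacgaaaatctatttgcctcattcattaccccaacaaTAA
No source used here says how the authors' counting treated reads over overlapping genes, so the levels of this pair are uncertain.

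Levels set per kilobase of annotated exon allow members to be ordered by counted reads. Exact nuclear copies, described below, and overlapping genes may affect members unequally. How such reads were counted is not given in the sources used here. In WT, mt-Co3 and mt-Co1 led at 5240 ± 996 and 4545 ± 528 CPM per kilobase. The libraries of this pair overlapped, while within each WT library mt-Co3 lay above mt-Co1 on this scale. mt-Co2 followed at 2249 ± 459, mt-Nd3 at 785 ± 154, mt-Nd1 at 387 ± 99.5 and mt-Cytb at 343 ± 149 CPM per kilobase, then mt-Atp8 at 260 ± 70.1, mt-Atp6 at 186 ± 95.4, mt-Nd4 at 109 ± 12.2, mt-Nd5 at 63.5 ± 1.17, mt-Nd2 at 49.3 ± 15.6 and mt-Nd6 at 13.2 ± 3.69 CPM per kilobase. The libraries of neighbours from mt-Nd1 through mt-Nd4 overlapped, as did those of mt-Nd5 and mt-Nd2. These overlaps are between libraries, and the order of these neighbours within each library was not compared. The members thus spanned a far wider range of levels than any single member did between genotypes. Within the mitochondrial mRNA reads, mt-Co1 made up 48.3 ± 0.895% in S34F and 49.5 ± 1.25% in WT, and mt-Co3 25.9 ± 1.35% and 28.8 ± 2.71%. Only the shares of mt-Nd4 (1.24 ± 0.0762% against 1.06 ± 0.0517%) and mt-Nd6 (0.0636 ± 0.00177% against 0.0477 ± 0.00878%) had no overlap between genotypes, and both were higher in S34F.

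The mitochondrial ribosomal RNAs, the core of the ribosome that translates these messages, were the most variable members. Libraries were depleted of ribosomal RNA before sequencing, per the labels' protocols, so their level here is what depletion left. mt-Rnr1, the small-subunit RNA, was at 1891, 2315 and 1571 CPM in S34F and at 1088, 796 and 130 CPM in WT (log2 fold change 1.52 ± 0.63, edgeR adjusted p = 0.548, DESeq2 adjusted p = 0.328). mt-Rnr2, the large-subunit RNA, was at 6523, 5544 and 5058 against 4505, 1893 and 487 CPM (1.31 ± 0.64, edgeR adjusted p = 0.569, DESeq2 adjusted p = 0.492). The groups did not overlap in either gene, while on the log2 scale the WT libraries differed from each other by more than the genotypes did. Ribosomal reads per mitochondrial mRNA read came to 0.440, 0.410 and 0.375 in S34F against 0.382, 0.170 and 0.0506 in WT. WT replicate 1 fell inside the S34F range, and the WT values ran opposite to total gene counts, lowest in the deepest library. The part of depletion and depth in this difference was not tested. mt-Rnr1 reads per mt-Rnr2 read overlapped between genotypes, at 0.339 ± 0.0685 and 0.309 ± 0.0972.

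Results for the mitochondrial members depended on which WT library was in the comparison. Leaving out WT replicate 1 kept the deepest WT libraries, both female, while S34F kept its male library. The part of depth and sex in that comparison was not tested. Without WT replicate 1, edgeR called 9 of the 14 higher in S34F, where 6.72% of all genes were called higher: mt-Nd1, mt-Nd2, mt-Nd4, mt-Nd5, mt-Co2, mt-Atp6, mt-Atp8, mt-Cytb and mt-Rnr2. The median of the 12 mRNAs was then 0.82, mt-Atp6 was at 1.55, mt-Rnr2 at 2.26 and mt-Nd3 at -0.04. DESeq2 then called 12 of the 14, with 13.8% of all genes called higher. Without WT replicate 3 the median of the 12 was 0.55, 0 passed edgeR while 9 had an unadjusted p under 0.05 (3.79% of all genes in either direction), and DESeq2 called 2 (0.129% of all genes were called higher). Over all choices of the library left out, DESeq2 called between 2 and 10 of the 12 mRNAs, beside 0.129% to 13.8% of all genes called higher, and edgeR called none except without WT replicate 1. Without S34F replicate 3, edgeR called 0.00718% of all genes and 0% in the higher direction, none of them a member. In that setting 10 of the 12 mRNAs had an unadjusted p under 0.05 (5.97% of all genes in either direction).

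**Figure D3:**
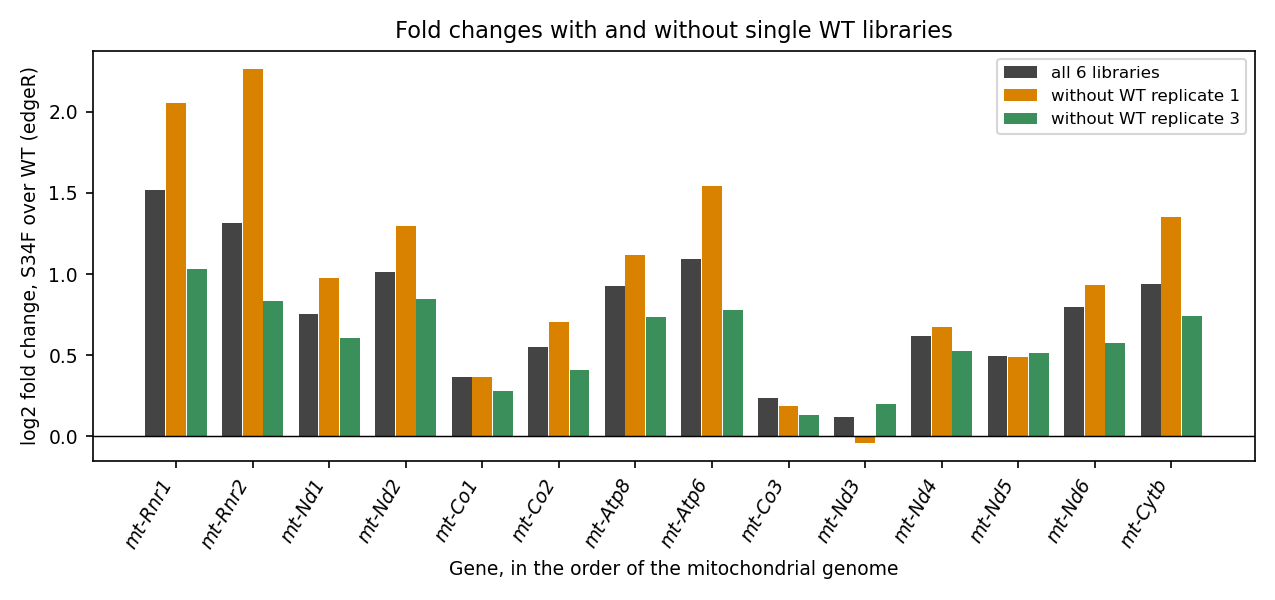
edgeR log2 fold change (S34F over WT) of each mitochondrial member in genome order, with all 6 libraries (grey), without WT replicate 1 (orange) and without WT replicate 3 (green). Bars are highest without WT replicate 1 at most genes, such as mt-Rnr2 at 2.26, and the only bar below 0 is mt-Nd3 without that library, at -0.04.

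With the male and the female libraries taken apart, the direction was the same for all mitochondrial members but mt-Nd3. In replicate 1, the male libraries, 12 of 12 mitochondrial mRNAs were higher in S34F than in WT, with a median log2 difference of 0.53 and a range of 0.32 to 0.98, where the median of all genes was -0.02. In replicates 2 and 3, the female libraries, 11 of 12 were higher, with a median of 0.79 and mt-Nd3 at -0.07. Of those 12, 10 did not overlap in that comparison of 2 libraries with 2, where 27.8% of all genes did not overlap in this direction. The ribosomal RNAs differed more between these subsets, at 0.80 and 0.53 for mt-Rnr1 and mt-Rnr2 in replicate 1 and 2.57 and 2.46 in replicates 2 and 3. The difference between the subsets was not tested. Replicate 1 was also where the genotypes were closest in depth (51862032 and 54727541 gene counts). Sex, replicate number and depth thus cannot be told apart between the subsets. With the sex of the cells as a term in the fit (added after seeing the data), edgeR called 0 of the 12 mRNAs, with 10 at an unadjusted p under 0.05 (14.3% of all genes in either direction). DESeq2 with that term called 9 of the 12, mt-Cytb and mt-Co2 among them, where 3.81% of all genes were called higher.

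Parts of the mitochondrial genome have near-identical copies in the nuclear chromosomes of this genome build, which can take or lend reads. Windows of 100 bases, the read length, were compared with the nuclear genome. Every window of mt-Co2, mt-Co3, mt-Atp6 and mt-Atp8, and 98.8% of those of mt-Nd3, had an exact nuclear copy, as did 60.8% for mt-Nd4, 30.8% for mt-Co1, 3.20% for mt-Nd2 and 1.21% for mt-Rnr2. With up to 2 mismatches allowed, the share was 100% for mt-Nd3, 71.1% for mt-Co1, 12.1% for mt-Nd2, 10.5% for mt-Rnr2, 9.62% for mt-Nd5 and 1.9% for mt-Nd6. It stayed at 60.8% for mt-Nd4 and at 0% for mt-Nd1, mt-Cytb and mt-Rnr1. No window of mt-Nd1, mt-Nd5, mt-Nd6, mt-Cytb or mt-Rnr1 had an exact copy, so a read of these 5 genes without mismatches had no exact nuclear match. The 4 mRNAs among them had log2 fold changes of 0.49 to 0.94, and the 5 mRNAs with 90% or more of their windows copied had 0.11 to 1.09. Reads of these 4 genes per nuclear member read came to 0.242, 0.180 and 0.238 in S34F against 0.187, 0.105 and 0.0890 in WT. The log2 difference of this ratio was 0.86, against 0.41 with all 12 mRNAs, and WT replicate 1 lay above S34F replicate 2.

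The nuclear subunits showed no common shift. Of 34, 13 had a higher and 21 a lower mean in S34F, the median log2 fold change was -0.03, and the range ran from -0.21 to 0.43. edgeR called 0 of them, and Ndufa5, Ndufa1 and Cox5a had an unadjusted p under 0.05, all higher (9.10% of all genes were so in either direction), and DESeq2 called 0, where 0.689% of all genes were called. In 6 genes, Ndufa1, Ndufa5, Ndufa9, Sdha, Cox5a and Atp5o, every S34F library exceeded every WT library, and in 0 was the reverse the case, beside 7.16% and 8.47% of all genes. By complex, the higher and lower counts were 5 and 10 for complex I, 2 and 0 for complex II, 2 and 3 for complex III, 2 and 5 for complex IV and 2 and 3 for complex V. Leaving the mitochondrial genes out of the table before scaling left the nuclear median at -0.03. Without WT replicate 1 the median was -0.12, edgeR called Cox6a1 and Ndufa1 higher (6.72% of all genes were called higher), and DESeq2 called 7 of the 34, 4 of them higher (20.8% of all genes were called). Without WT replicate 3, 24 of the 34 had a higher mean and the median was 0.04.

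**Figure D4:**
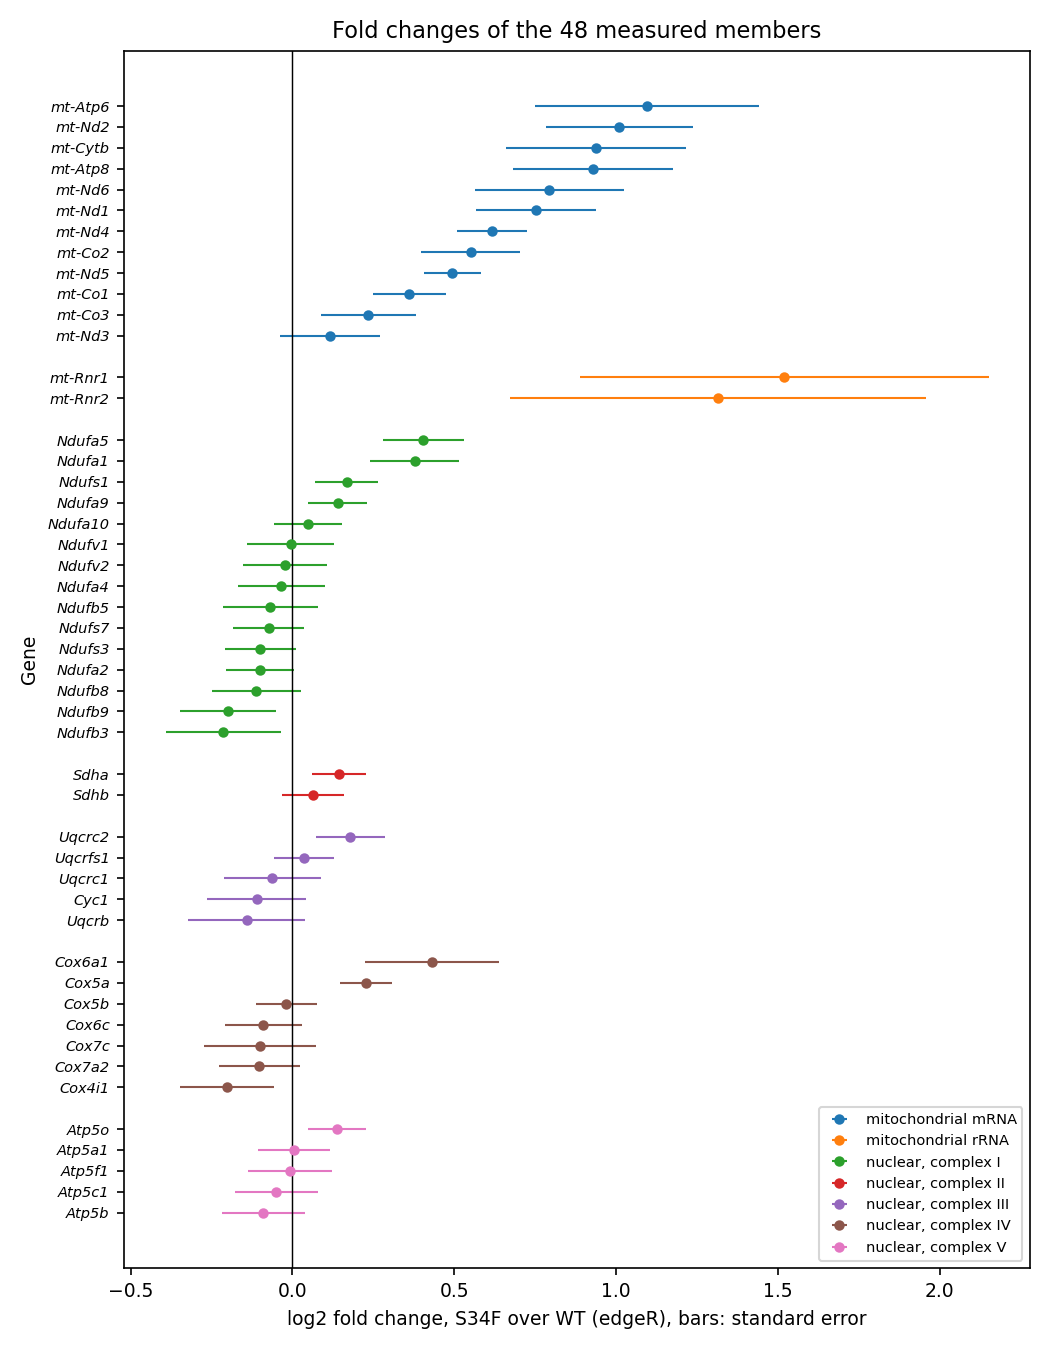
edgeR log2 fold change (S34F over WT, x axis) of the 48 measured members, grouped and coloured by genome and complex; points are estimates and bars are standard errors. Mitochondrial members lie to the right of 0, up to 1.52 for mt-Rnr1, while the nuclear members lie between -0.21 and 0.43 around 0.

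Among the 15 nuclear complex I genes, accessory subunits stood at both ends. Ndufa5, an accessory subunit of the matrix arm, was at 28.6, 28.4 and 25.2 CPM in S34F and 21.9, 21.9 and 18.3 CPM in WT (chr6:24468666-24478013, log2 fold change 0.40 ± 0.13 SE, edgeR adjusted p = 0.538). Ndufa1, needed for complex I assembly and encoded on the X chromosome, was at 37.4, 38.6 and 36.6 against 34.3, 27.3 and 25.0 CPM (chrX:34727583-34731158, 0.38 ± 0.14, edgeR adjusted p = 0.538). For Ndufa1 the male WT replicate 1 was the WT library closest to them. At the other end, Ndufb3 was at 46.6 ± 6.09 in S34F and 53.9 ± 11.7 CPM in WT (-0.21 ± 0.18), Ndufb9 at 85.6 ± 7.61 and 98.3 ± 17.8 CPM (-0.20 ± 0.15), and Ndufb8 at 140 ± 16.7 and 152 ± 21.9 CPM (-0.11 ± 0.14). All 3 are membrane-arm subunits, and their libraries overlapped. Ndufa4, long listed with complex I and later found in complex IV, had the highest mean level of this group, 197 ± 16.9 and 201 ± 31.2 CPM. Among the core subunits, Ndufv1, which binds NADH, was at 145 ± 20.7 and 146 ± 16.6 CPM, and Ndufs1, which carries iron-sulfur clusters, at 146 ± 10.7 and 130 ± 7.66 CPM (log2 fold change 0.17). The log2 fold changes of the core subunits Ndufv2, Ndufs3 and Ndufs7 were -0.02, -0.10 and -0.07. None of these 5 genes passed edgeR or DESeq2.

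Complexes II and III gave small differences. Sdha, the succinate-oxidising flavoprotein of complex II, was at 199, 212 and 206 CPM in S34F and 191, 186 and 180 CPM in WT, without overlap (chr13:74459702-74487728, log2 fold change 0.14 ± 0.08, edgeR adjusted p = 0.597). Sdhb, its iron-sulfur partner, was at 113 ± 7.39 and 109 ± 7.02 CPM. In complex III the core proteins Uqcrc1 and Uqcrc2 differed in sign: Uqcrc1 was at 248 ± 43.0 and 259 ± 30.9 CPM (-0.06 ± 0.15) and Uqcrc2 at 238 ± 21.1 and 210 ± 14.8 CPM (0.18 ± 0.11). Neither passed the test, and the libraries of both overlapped. Uqcrb, which binds ubiquinone, was at 101 ± 11.2 and 111 ± 26.4 CPM (-0.14 ± 0.18), and its lowest value, 82.2 CPM, was in WT replicate 1.

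In complex IV the highest and nearly the lowest nuclear fold changes met in 1 enzyme. Cox6a1, the isoform of subunit 6a found outside muscle, was at 102, 110 and 108 CPM in S34F and 107, 58.4 and 71.7 CPM in WT (chr5:115795651-115798990, log2 fold change 0.43 ± 0.21, edgeR adjusted p = 0.566). WT replicate 1 was within the S34F range and the other WT libraries were far below, so that without it the value was 0.71 with an edgeR adjusted p of 0.0149. In the male libraries alone the log2 difference of Cox6a1 was -0.07. Cox5a, a small subunit on the matrix side, was at 132, 128 and 126 against 112, 110 and 107 CPM (chr9:57369039-57380231, 0.23 ± 0.08, edgeR adjusted p = 0.538). Its difference was small and even, at 0.23 in the male and 0.22 in the female libraries. Cox4i1, the most abundant nuclear member of complex IV and a regulatory subunit, was at 274, 303 and 282 against 264, 336 and 387 CPM (-0.20 ± 0.14), and these ranges overlapped.

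The ATP synthase was the most abundant nuclear group, with 0.344 ± 0.0194% of gene counts in S34F and 0.351 ± 0.0387% in WT. Atp5a1, the alpha subunit of the catalytic head, was at 1298, 1467 and 1323 CPM in S34F and 1204, 1401 and 1468 CPM in WT (log2 fold change 0.01 ± 0.11, edgeR adjusted p = 0.99). Atp5b, the catalytic beta subunit, was at 1256 ± 96.5 and 1336 ± 186 CPM. The mitochondrial subunits of this same complex, mt-Atp6 and mt-Atp8, differed by 1.09 and 0.93 on the log2 scale in these libraries, and edgeR called neither. Atp5o, the stalk subunit that confers oligomycin sensitivity, was at 193, 206 and 185 against 176, 170 and 184 CPM (chr16:91684643-91931932, 0.14 ± 0.09, edgeR adjusted p = 0.622).

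The median of the nuclear subunits had opposite signs in replicate 1 (male) and in replicates 2 and 3 (female). In replicate 1, 27 of the 34 were higher in S34F, with a median log2 difference of 0.10 (47.3% of all genes were higher there). In replicates 2 and 3, 13 were higher with a median of -0.08, and 7 did not overlap upward and 13 downward, beside 27.8% and 26.5% of all genes. Uqcrb was at 0.31 and -0.33 in these subsets, Cox7c at 0.33 and -0.27, Ndufa4 at 0.31 and -0.19 and Ndufb3 at 0.13 and -0.36. The male subset held 1 library per genotype, so it had no replicate check, and the difference between the subsets was not tested. Sex, replicate number and the depth gap between genotypes cannot be told apart in it.

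Other genes of the pathway also lay around 0. Of 52 further nuclear subunits listed, 50 were tested, of which 16 were higher and 34 lower in S34F, with a median log2 fold change of -0.04 and none called by edgeR (3 at an unadjusted p under 0.05) or DESeq2. For this list and those that follow, the shares of all genes tested were 9.10% at an unadjusted p under 0.05 in edgeR, 0% called by edgeR and 0.689% called by DESeq2. Atp5g3, a gene for the c-ring of the ATP synthase, was at 151 ± 5.65 and 121 ± 15.2 CPM (0.33 ± 0.11), and Ndufab1, the mitochondrial acyl carrier protein, at 66.7 ± 4.80 and 54.0 ± 4.00 CPM (0.30 ± 0.10). Both were without overlap between genotypes. They were the only 2 of the 50 that were higher without overlap, and 0 were lower without overlap, beside 7.16% and 8.47% of all genes. Atp5e, the epsilon subunit, was at 106 ± 11.6 and 138 ± 27.9 CPM (-0.38 ± 0.16), and Uqcrq, a small complex III subunit, at 56.4 ± 6.76 and 71.4 ± 18.9 CPM (-0.34 ± 0.20). The 29 assembly factors tested of 39 listed split into 15 higher and 14 lower, median 0.01, with none called by edgeR (4 at an unadjusted p under 0.05) or DESeq2. Oxa1l, which inserts mitochondrially made proteins into the inner membrane, was at 75.5 ± 5.83 and 58.5 ± 8.06 CPM (0.37 ± 0.13), and Surf1, a complex IV assembly factor, at 35.7 ± 4.11 and 29.0 ± 0.731 CPM (0.30 ± 0.12). Bcs1l, which inserts the Rieske protein into complex III, was at 18.7 ± 2.55 and 25.4 ± 5.06 CPM (-0.44 ± 0.18), and Sdhaf2, which helps attach flavin to Sdha, at 36.9 ± 2.52 and 45.6 ± 6.27 CPM (-0.30 ± 0.13).

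The nuclear genes that copy, process and translate mitochondrial RNA showed no common shift either. Of 39 listed genes for mitochondrial DNA expression, 33 were tested and 19 were higher and 14 lower, with a median log2 fold change of 0.03 and none called by edgeR (6 at an unadjusted p under 0.05) or DESeq2. Gabpa, a subunit of the nuclear respiratory factor GABP, was at 116 ± 4.83 and 90.3 ± 9.07 CPM (0.36 ± 0.10), and Tfb2m, a transcription factor of the mitochondrial polymerase, at 27.4 ± 1.44 and 19.9 ± 4.34 CPM (0.46 ± 0.16). Rexo2, an exonuclease that degrades short RNAs in mitochondria, was at 33.0 ± 1.14 and 48.4 ± 13.5 CPM (-0.55 ± 0.20), and Hsd17b10, part of mitochondrial RNase P, at 45.1 ± 2.98 and 59.0 ± 12.2 CPM (-0.39 ± 0.16). In the male WT replicate 1, Rexo2 was at 33.0 CPM, within the S34F range of 32.0 to 34.3 CPM. Of 83 mitochondrial ribosomal protein genes, 76 were tested, 32 higher and 44 lower, median -0.05, with none called by edgeR (4 at an unadjusted p under 0.05) and 1 by DESeq2. That gene, Mrpl9, was at 63.7, 66.6 and 58.5 against 50.4, 36.0 and 38.1 CPM (0.60 ± 0.14, DESeq2 adjusted p = 0.0412). Mrpl39 was at 53.8 ± 2.15 and 43.0 ± 2.03 CPM (0.32 ± 0.09), Mrpl52 at 21.5 ± 0.614 and 27.6 ± 5.38 CPM (-0.36 ± 0.15) and Mrpl41 at 25.7 ± 4.11 and 33.2 ± 6.72 CPM (-0.37 ± 0.18).

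Splicing was compared in the nuclear members, since the mitochondrial members have no junctions. At 79 forms of splice choices in 20 genes, 38 acceptors, 38 donors and 3 cassette exons, the reads of each form were set against the alternatives, with a median of 1028 reads per choice and library. edgeR called 0 of the 79, where it called 0% of all acceptor forms, 0.00997% of donor forms and 0.0275% of cassette exons. An unadjusted p under 0.05 was found for 2 acceptor and 3 donor forms, those of Ndufv1, Atp5f1 and Ndufs7, and 0 cassette exons, or 5 in all, beside 7.37% of all forms tested (7.51% of acceptors, 6.42% of donors and 10.8% of cassette exons). DESeq2 called 3 donor forms, where 0.774% of all donor forms were called, and no acceptor or cassette exon, where 1.24% and 2.09% were. No group mean moved by more than 3.87 percentage points. Zeros in the junction table did not follow depth: WT replicate 3, the deepest library, had 9866 junctions at 0 and 388 at 1 read, while S34F replicate 1 had 5111 at 0 and 1536 at 1 read. A count of 0 is therefore given as listed and may not be a measured absence.

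The sites with the lowest p are shown because they carry the differences described next. Each is printed from its own strand of mm9, with 10 exon and 10 intron bases for a donor and 20 intron and 3 exon bases for an acceptor, and the capitals mark the GT of a donor or the last 3 intron bases of an acceptor.
Ndufv1 main donor, chr19:4012541-4012560, minus strand: cagcggcacgGTgagcccgc
Ndufv1 donor 27 nt upstream, chr19:4012568-4012587, minus strand: tcccgtgcggGTatctgtgc
Ndufv1 donor 106 nt upstream, chr19:4012647-4012666, minus strand: agttgtgaagGTgacagccg
Atp5f1 main donor, chr3:105746595-105746614, minus strand: tgtacagcagGTacattatg
Atp5f1 donor 117 nt upstream, chr3:105746712-105746731, minus strand: atataaggagGTaaagaatc
Ndufs7 main acceptor, chr10:79719361-79719383, plus strand: tcaaccgtttgtgtcccCAGgct
Ndufs7 acceptor 44 nt downstream, chr10:79719405-79719427, plus strand: tcctttatggcatcttgCAGctg
Ndufb8 main acceptor, chr19:44624900-44624922, minus strand: ttttctgtcttcttcctTAGggt
Ndufb8 acceptor of the next exon, chr19:44624708-44624730, minus strand: ttctgtgtctctttctcCAGgaa
Ndufa4 main acceptor, chr6:11856106-11856128, minus strand: ctttgtctatttgtttcTAGttg
Ndufa4 acceptor 31 nt downstream, chr6:11856075-11856097, minus strand: cttcgtatttattggagCAGggg
In the acceptor pairs of Ndufb8 and Ndufa4 the main site ends in TAG and the minor site in CAG, and in Ndufs7 both end in CAG. The acceptor choice of Ndufv2, named below and not printed, has TAG at both its main and its minor site. The least used acceptors of Ndufb8 and Ndufa4, not printed either, also end in TAG. A link between these bases and the differences was not tested.

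The lowest p was at donors of Ndufv1, the NADH-binding subunit. The main donor had 820, 939 and 972 reads in S34F, with the upstream donors listed at 0, which at this depth allows a minor share of up to 0.366%, 0.320% and 0.309% by counting error alone. In WT the upstream donors had 6, 23 and 52 reads, so the main donor took 99.4%, 98.4% and 97.5%. The genotypes did not overlap, with means of 100.0% and 98.4 ± 0.919% (edgeR adjusted p = 0.564, DESeq2 adjusted p = 0.0074). This choice was picked by its p, and the share of all forms without overlap was not counted. In each WT library the minor reads came from 1 or both upstream donors: WT replicate 1 had 6 reads at the donor 106 nt away, WT replicate 2 had 23 at the donor 27 nt away, and WT replicate 3 had 18 at the farther and 34 at the nearer donor.

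Atp5f1, the b subunit of the ATP synthase stalk, had an unannotated donor used in 2 libraries. That donor had 184, 173 and 1 reads in S34F and 1, 0 and 0 in WT, or 5.97%, 5.64% and 0.0390% against 0.0367% and 2 libraries listed at 0. The difference thus rested on S34F replicates 1 and 2, and S34F replicate 3 was like WT (edgeR adjusted p = 0.687; DESeq2 adjusted p = 0.0297 for both forms). The level of Atp5f1 was 291 ± 20.2 and 293 ± 42.7 CPM, with no difference between genotypes beyond the spread.

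Acceptor choices differed by a few percentage points. The downstream acceptor of Ndufs7, a subunit that holds the last iron-sulfur cluster of complex I, took 0.447%, 0.461% and 1.42% in S34F and 1.53%, 1.62% and 2.96% in WT (edgeR adjusted p = 0.663). The Ndufb8 acceptor that skips an exon took 4.02%, 7.11% and 3.82% against 3.31%, 2.05% and 2.81% (edgeR adjusted p = 0.673). Both were without overlap, the first lower and the second higher in S34F. So were the other splice choices named here, all picked by their p. The share of all forms without overlap was not counted. The minor acceptors of Ndufa4 left the main one with 98.6 ± 0.354% against 99.2 ± 0.125% (edgeR adjusted p = 0.679), and the downstream acceptor had 67, 54 and 88 reads in S34F and 39, 49 and 109 in WT. The remaining choices among the 8 of lowest p were a donor of Atp5c1, the gamma subunit of the ATP synthase, at 1.39 ± 0.305% in S34F and 1.96 ± 0.247% in WT, an acceptor of Ndufv2, which passes electrons on from Ndufv1, at 1.43 ± 0.237% and 0.852 ± 0.272%, and a donor of Ndufs3, a core subunit, at 2.28 ± 0.556% and 0.665 ± 0.585%. For Ndufs3 that donor had 28, 16 and 20 reads in S34F against 11, 13 and 0 in WT, the 0 in the deepest library. None of these 8 choices was called by edgeR.

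**Figure D5:**
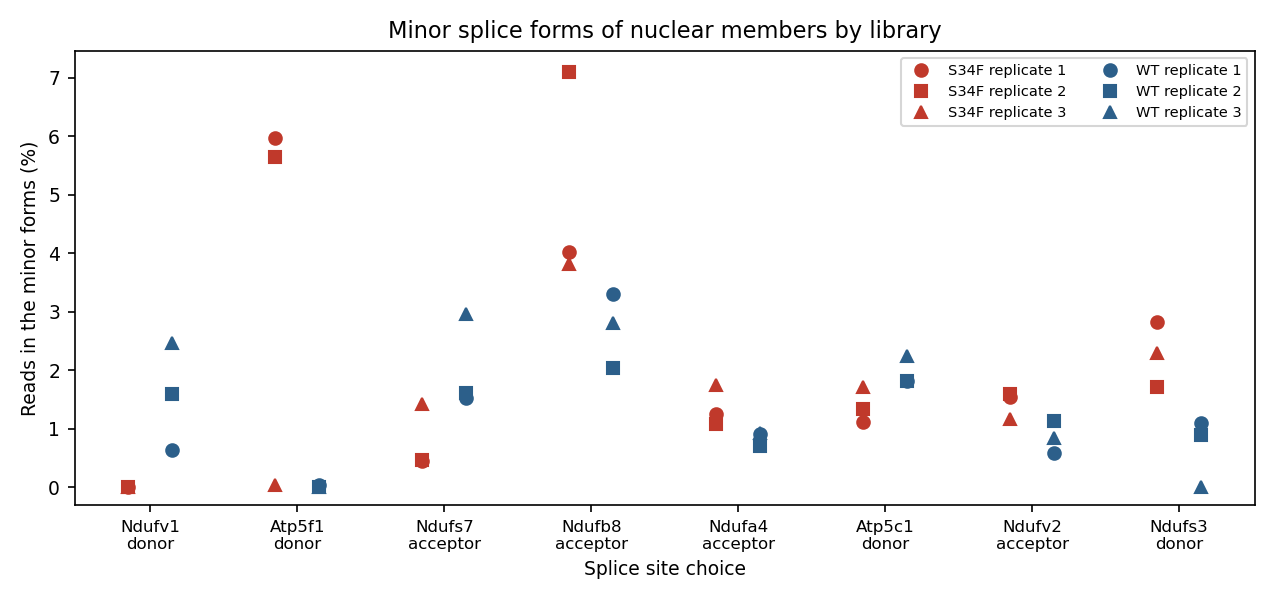
Percent of reads in the minor forms at the 8 splice choices of lowest p in the nuclear members (y axis, percent; x axis, gene and kind of choice); points are libraries, red S34F and blue WT, with marker shape by replicate. Points lie below 8% throughout, and at Atp5f1 S34F replicates 1 and 2 (5.97% and 5.64%) stand above the other 4 libraries.

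The acceptor bases of the nuclear members resembled those of all genes. The base just before the AG, at which the S34F substitution is known to alter the preference of U2AF1, was C at 64.0%, T at 28.4%, A at 7.58% and G at 0% of 211 acceptors used in the 34 nuclear members. Over 115153 acceptors of all genes it was C at 62.7%, T at 31.2%, A at 5.90% and G at 0.245%. Junction reads of the nuclear members outside annotated junctions that skip no exon took 9.18 ± 0.0519% against 9.54 ± 0.392% (S34F against WT), and those in unannotated junctions 0.236 ± 0.0257% and 0.201 ± 0.0155%. Both overlapped between genotypes. In the authors' deposited table of junction tests, the lowest adjusted p of any junction in these genes was 0.121, in Cox6c, where 0.34% of all junctions were called at 0.05.

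Junction reads per gene read, which can exceed 1 because a read pair may cross several junctions, were 1.25 ± 0.00771 in S34F and 1.24 ± 0.00877 in WT over the nuclear members and overlapped. Ndufb5, Ndufv1 and Atp5b were higher without overlap (4.55% of all genes were), and Ndufb8 was lower without overlap (7.58% of all genes were). For Ndufb8 the ratio was 1.25, 1.30 and 1.32 in S34F and 1.36, 1.35 and 1.34 in WT.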

How the data were processed

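The authors deposited raw read counts per gene and per splice junction, with a column per library and no normalization; per the labels, reads of 100 bp were aligned to mm9 with TopHat 2.0.8 after ribosomal RNA depletion. Per the file headers, log2 fold changes and p-values of the authors' gene and junction tests stand beside them and were used only where their table is named. Per the submitters' processing notes, HTSeq 0.5.4p1 and DESeq2 1.6.1 took part, with no role given. Here, gene counts were tested with edgeR 4.0.16 in R 4.3.3 (TMM scaling, default expression filter, quasi-likelihood F test, two-sided) and, as an alternative, DESeq2 1.42.0; p-values were adjusted by Benjamini-Hochberg over all genes, with a threshold of 0.05. Fold changes are S34F over WT. Splice forms needed 20 reads in every library and 1% of reads (2% for cassette exons) and were tested as the interaction of form and genotype with the same tools. Junction positions were exon bases, and introns began 1 base inward, where 99.985% of GT-AG junctions matched the genome. Nuclear copies were sought with blastn 2.17.0. On simulated counts edgeR found 14% of the genes given a 1.5-fold change, 60% of those given 2-fold and 88% of those given 4-fold (15 false calls in 13871 genes). For splice forms at a 4-fold odds change it recovered 30% of acceptors, 34% of donors and 84% of cassette exons.

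Named were all mitochondrial members; per complex, the nuclear members of highest level and lowest p; the 5 highest and 5 lowest nuclear fold changes; per other list, the 2 genes of lowest p in each direction; and the 8 splice choices of lowest p. Further genes named (Ndufv1, Ndufv2, Ndufs1, Ndufs3, Ndufs7, Sdhb, Atp5b, Cox7c and the groups without overlap) were chosen after their values were seen. The members and lists were chosen with earlier results of these data known. Replicates were separate pools of animals, and whether pools shared marrow donors is not given in the sources used here. Depth was 46827909 to 94562984 gene counts, and limits for a count of 0 used 3 counts and cover counting error only.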

Additional observations from a re-analysis of the deposited data

How the results depend on the processing

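With edgeR the number of genes called was 0, and it was 96 with DESeq2, 5 with the replicate number as a block, 444 with DESeq2 and the same replicate block (added after seeing the data), 643 with DESeq2 and the sex of the cells as a term (added too), 0 to 1172 leaving out each library in turn and, with DESeq2 (added too), 68, 55 and 90 without S34F replicates 1, 2 and 3 and 2501, 78 and 43 without WT replicates 1, 2 and 3. Acceptor forms called were 0, 368 with DESeq2, 5 when both forms needed 5% of reads and 0 leaving out libraries. Donor forms called were 3, 233 with DESeq2, 0 with the replicate block and 0 to 5 leaving out libraries. Cassette exons called were 2, 99 with DESeq2, 7 at 5%, 0 with the replicate block and 0 leaving out libraries. The replicate numbers were not taken as pairs in the main fit, since no source used here states that same-numbered libraries share anything. The values were mixed: same-number correlations of deviations were 0.27, 0.34 and 0.04. S34F replicates 1 and 2 correlated best with the same-numbered WT library, and S34F replicate 3 with WT replicate 1 (0.14). The sex of the cells also matched by number. With the block in DESeq2, 10 of the 12 mitochondrial mRNAs were called higher, mt-Cytb, mt-Co1 and mt-Co2 among them, beside 2.57% of all genes, and with the block in edgeR 0.

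The log2 difference of mitochondrial to nuclear member reads was 0.86 with only the 4 mRNAs without exact nuclear copies, against 0.41 (added after seeing the data). The mitochondrial members kept their direction in every setting run except mt-Nd3, at -0.040 to 0.20 over the libraries left out, below 0 without WT replicate 1. Of the 34 nuclear members, 17 changed sign when some library was left out, none with more than 0.14 on the log2 scale with all 6 libraries, and among those followed through every setting these were Atp5a1 (-0.074 to 0.066), Ndufa4 (-0.15 to 0.052), Ndufb8 (-0.20 to 0.0062), Uqcrb (-0.32 to 0.0091) and Uqcrc1 (-0.20 to 0.043). The cause of these changes was not tested. On simulated data a 2-fold odds change was recovered in 0% of acceptor forms, 2% of donor forms and 18% of cassette exons. That simulation took the read totals of these 6 libraries but an assumed spread between them, so the rates may differ in the real data.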
